A study of Homo sapiens with 12 samples.

Results

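The interferon regulatory factor (IRF) genes studied here were IRF1, IRF2, IRF3, IRF4, IRF5, IRF7, IRF8 and IRF9. They were taken from the array annotation as every probe set whose only gene symbol is one of these 8, which gave 13 of 54613 probe sets, or 8 of 19775 genes. IRF4 and IRF5 had 3 probe sets each, IRF1 had 2 and the other genes had 1. A further probe set that names IRF9 together with another gene was not assigned. The samples were L1236 and L428, established lines from classical Hodgkin lymphoma, each grown from 1 tumour. In each line 3 arrays measured cells given 5-Aza-dC and 3 arrays measured untreated cells, 12 arrays in all. The drug was given at 1 µM for 24 h, and the cells then spent 72 h without it before RNA was taken. 5-Aza-dC, also called decitabine, is incorporated into DNA and traps the DNA methyltransferases there, which lowers methylation over later divisions.

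IRF proteins share an N-terminal DNA-binding domain that reads GAAA repeats in the promoters of interferons and of interferon-stimulated genes. IRF3 is present before any stimulus and is activated by the kinase TBK1, IRF7 is itself induced by interferon and amplifies the response, and IRF9 is the DNA-binding subunit of ISGF3, the complex that carries the signal of the type I interferon receptor to the nucleus. IRF1 is an activator induced by interferon gamma and IRF2 is its antagonist. IRF5 acts below Toll-like receptors. IRF4 and IRF8 are restricted largely to blood cells, bind DNA with partners such as PU.1 and SpiB, and steer B-cell and plasma-cell development. Hodgkin cells keep IRF4 although much of their B-cell identity is gone.

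Values are log2 signals from robust multichip averaging (RMA), and differences are on the same log2 scale, with SE, from limma. Array medians lay between 3.01 and 3.08. Correlations across probe sets were 0.982 to 0.997 within a group and 0.911 to 0.937 between the lines. Treated replicate 1 stood apart in both lines. Measured against its group mean over all probe sets, it deviated with an SD of 0.35 in L1236 and 0.385 in L428, and the remaining arrays did so with an SD of 0.161 to 0.313. Of all arrays, untreated L428 replicate 3 was the one most like treated L428 replicate 1. The source name of untreated L1236 replicate 1 describes treated L428 cells. Its description puts it among untreated L1236 arrays, and the array most like it was untreated L1236 replicate 3. Results that rest on the arrays numbered 1 are therefore also given without them. That fit has fewer arrays per group, and it leaves out the lowest treated array of IRF7, IRF9, IRF1 and IRF8. In it 23.3% of all probe sets were called in L1236 and 18.2% in L428, against 9.02% and 3.02% with all arrays. TNFRSF8 (CD30), which marks Hodgkin cells, averaged 9.59 in treated and 9.57 in untreated L1236, and 10.17 in treated and 10.39 in untreated L428. Of 6 Hodgkin markers, CCL17, CD70 and GATA3 rose in L1236 and 0 were called in L428, with median differences of 1.06 and 0.21. The CD70 call was lost with only the L1236 arrays in the fit (limma adjusted p = 0.058). That of GATA3 was lost under 3 alternatives (up to 0.0594). The mean level of the 6 was 10.32 to 10.98 in treated and 9.5 to 9.65 in untreated L1236, and 12.51 to 12.65 in treated and 11.92 to 12.76 in untreated L428. Their part in the IRF differences was not tested. The B-cell genes CD79A and MS4A1 averaged between 2.46 and 3.78 in all groups. The Hodgkin marker TRAF1 was near the floor in L1236, at 2.07 treated and 2.10 untreated, and the B-cell genes PAX5 and POU2AF1 were high there, at 11.78 and 13.41 in untreated cells. RNA came from whole cultures, in which more cells with a transcript and more transcript per cell cannot be told apart.

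5-Aza-dC raised 5 IRF genes in L1236 and 3 in L428, and limma called no IRF gene lower in either line. IRF7 and IRF1 rose in both. Of the 13 probe sets, 6 were called higher in L1236, against 4.58% of all probe sets, and 3 in L428, against 1.82% of all. A probe set was called at a Benjamini-Hochberg adjusted p under 0.05. None of the 13 was called lower, against 4.44% of all in L1236 and 1.2% in L428. An unadjusted limma p under 0.05 was found for 9 of the 13 in L1236, all higher, and for 7 in L428. Those in L428 include lower values of IRF5 at 205469_s_at (-0.48) and 239412_at (-0.58). The share of all probe sets with such a p is not given here, so these counts have no background to be read against. The median difference over the 13 was 0.80 in L1236 and 0.29 in L428, beside -0.03 and -0.02 over all probe sets. With 1 probe set per gene the medians were 1.21 in L1236 and 0.79 in L428.

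The treated arrays lay above all untreated arrays for 8 IRF probe sets in L1236 and for 7 in L428, a separation found in 10.3% and 6.41% of all probe sets. They lay below all untreated arrays for 0 in L1236 and 2 in L428, against 48.0% and 9.81%. Of the probe sets behind the share of 48.0%, 74.6% had a mean under 4, against 58.1% of all probe sets, and these had a median difference of -0.04.

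**Figure D1:**
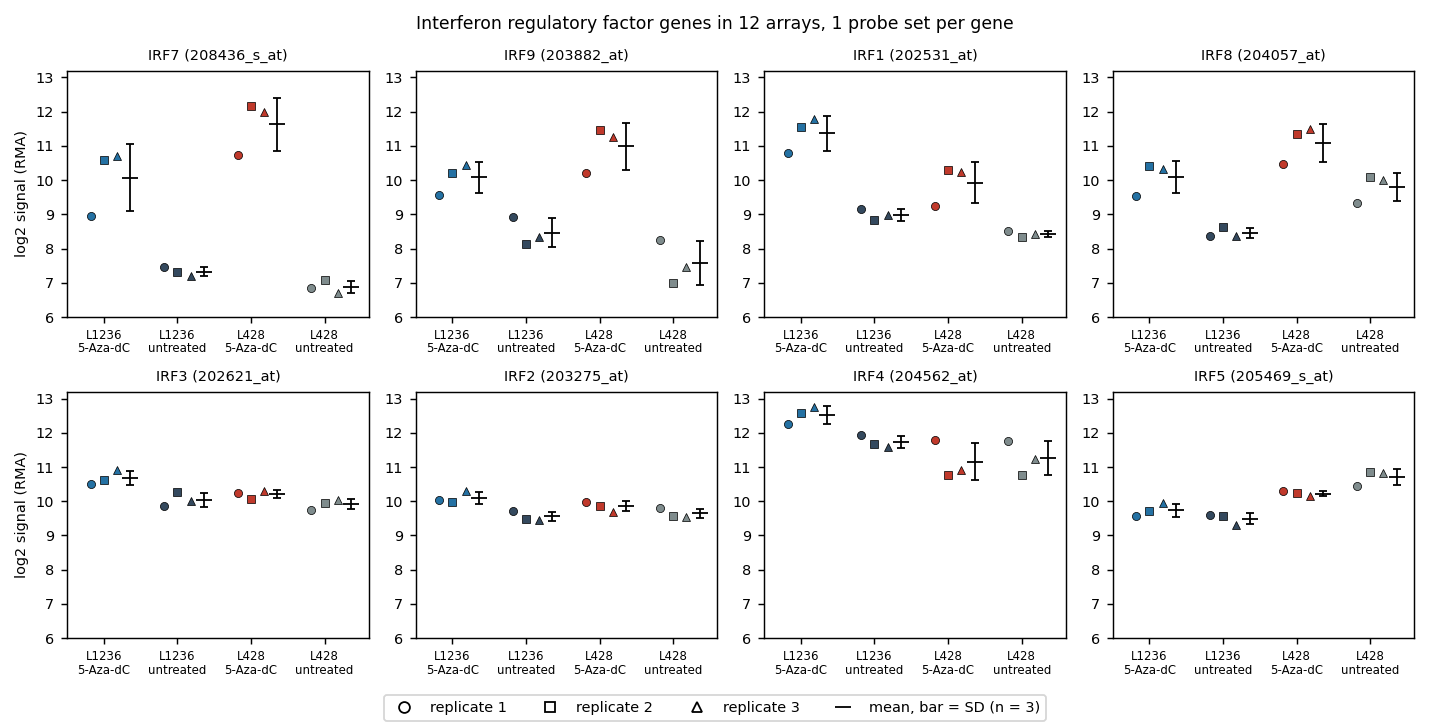
Log2 signal of 8 IRF genes, 1 probe set per gene, in 4 groups of 3 arrays; symbols mark replicates and bars the mean with its SD. For IRF7, IRF9, IRF1 and IRF8 each treated array lies above the untreated arrays of its line, and treated replicate 1 is the lowest treated array.

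IRF7 (chromosome 11, 612555 to 615950, GRCh38.p14) had the largest difference of the 13 probe sets in both lines. Its probe set 208436_s_at read 8.94, 10.58 and 10.70 in treated L1236, against 7.46, 7.33 and 7.20 in untreated L1236. In L428 it read 10.75, 12.18 and 11.98 after treatment, against 6.86, 7.07 and 6.71 without. The groups did not overlap in either line. The rise was 2.75 ± 0.49 in L1236, 6.71-fold (adjusted p = 0.0106), and 4.76 ± 0.49 in L428, 27-fold (adjusted p = 0.00164). Without the arrays numbered 1 the rises were 3.38 ± 0.14 in L1236 and 5.19 ± 0.14 in L428 (adjusted p = 0.000183 and 7.81e-05). With only the L1236 arrays in the fit, the L1236 call was lost (adjusted p = 0.0584).

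IRF9 (chromosome 14, 24161265 to 24166565) was raised in L428. Its probe set 203882_at read 10.21, 11.47 and 11.27 in treated L428, against 8.26, 6.99 and 7.47 in untreated L428, with no overlap. The rise was 3.41 ± 0.43, or 10.7-fold (adjusted p = 0.00437), and it was 4.14 ± 0.19 without the arrays numbered 1. In L1236 the treated arrays read 9.58, 10.20 and 10.45, against 8.94, 8.13 and 8.33 in untreated cells. These also did not overlap, but the difference of 1.61 ± 0.43, or 3.06-fold, was not called (adjusted p = 0.0536). It was called at 2.10 ± 0.19 without the arrays numbered 1 (adjusted p = 0.00181), and without treated L1236 replicate 1, untreated L428 replicate 1 or treated L428 replicate 1 alone (0.0351, 0.0421 and 0.028). It was also called without dim probe sets (0.019), with median centring (0.0357) and with 1 probe set per gene (0.0381). Another variance model (0.042) and array weights (0.000586) called it too. Cyclic loess scaling (0.0605), the replicate block (0.0885) and a fit of only the L1236 arrays (0.0651) did not call this difference. Over all alternatives its adjusted p ran from 0.000586 to 0.187. With only the L428 arrays in the fit, the L428 call was lost (adjusted p = 0.0963).

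IRF1 (chromosome 5, 132481609 to 132490773) rose in both lines, and its probe sets moved alike, with a Pearson correlation of 0.97 over the 12 arrays, which share 4 groups. Probe set 202531_at read 10.79, 11.54 and 11.78 in treated L1236, against 9.17, 8.82 and 8.97 in untreated L1236. It read 9.25, 10.29 and 10.25 in treated L428, against 8.51, 8.33 and 8.42 in untreated L428. The treated arrays lay above the untreated ones in both lines. The rise was 2.38 ± 0.31 in L1236, 5.22-fold (adjusted p = 0.00236), a call kept under each alternative run. In L428 it was 1.51 ± 0.31, 2.85-fold (adjusted p = 0.0401), and 1.90 ± 0.10 without the arrays numbered 1 (adjusted p = 0.000478). The second probe set, 238725_at, rose by 2.27 ± 0.53 in L1236 (adjusted p = 0.0301) and had a difference of 1.78 ± 0.53 in L428 (adjusted p = 0.127, or 0.0117 without treated L428 replicate 1).

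The L428 call of IRF1 at 202531_at was lost when any untreated array of either line, treated L428 replicate 2 or 3, or treated L1236 replicate 2 was left out (adjusted p = 0.0611 to 0.162). It was also lost with cyclic loess scaling (0.052) and with only the L428 arrays in the fit (0.183). The L1236 call at 238725_at was lost without any 1 untreated L1236 array or without treated L1236 replicate 2 or 3 (0.0738 to 0.117), and with only the L1236 arrays (0.0649).

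Both IRF1 and IRF9 are known targets of interferon signalling, and their promoters are shown because both rose in L428 and the motif bound by STAT proteins was found in each. The windows run from 250 bases before to 50 after the gene's start, on the gene's strand, in RefSeq's GRCh38.p14 table, chr5:132490724-132491023 (minus strand) for IRF1 and chr14:24161015-24161314 (plus strand) for IRF9. Capitals mark the GAS motif TTCNNNGAA, which reads the same on both strands.
IRF1: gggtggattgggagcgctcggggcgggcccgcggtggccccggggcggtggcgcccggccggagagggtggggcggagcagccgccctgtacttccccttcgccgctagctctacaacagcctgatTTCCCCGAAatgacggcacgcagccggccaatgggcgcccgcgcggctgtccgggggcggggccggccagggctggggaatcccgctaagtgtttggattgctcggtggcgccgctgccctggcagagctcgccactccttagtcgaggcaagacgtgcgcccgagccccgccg
IRF9: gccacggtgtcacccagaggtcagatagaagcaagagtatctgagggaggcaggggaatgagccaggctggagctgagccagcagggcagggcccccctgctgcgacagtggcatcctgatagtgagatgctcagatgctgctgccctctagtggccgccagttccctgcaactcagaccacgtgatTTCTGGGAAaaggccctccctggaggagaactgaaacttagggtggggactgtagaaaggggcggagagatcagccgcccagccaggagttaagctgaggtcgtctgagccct
The motif starts at position -124 in IRF1, as TTCCCCGAA, and at position -63 in IRF9, as TTCTGGGAA, counted back from the gene's start. It was in 6.97% of 15842 windows of protein-coding genes. Windows were in the table for 5 members, which are IRF1, IRF4, IRF5, IRF8 and IRF9. The ISRE core (GAAA, any 2 bases, GAAA) and the ETS-IRF composite (GGAA, any 2 bases, GAAA), searched on both strands, were in 3.18% and 2.50% of the protein-coding windows and in none of these 5. No match overlapped another. A match is a string of letters and not a tested site. The windows held 36 CpG dinucleotides in IRF1, 32 in IRF4, 25 in IRF5, 7 in IRF9 and 3 in IRF8, beside a median of 22 over the protein-coding windows. The IRF8 window begins at 85902580, inside the gene as annotated (chromosome 16, 85899162 to 85922609), and the IRF5 window at 128937677, inside IRF5 (chromosome 7, 128937032 to 128950038), so both belong to later start sites. Methylation was not measured.

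IRF8 rose in L1236. Its probe set 204057_at read 9.55, 10.42 and 10.32 in treated L1236, against 8.38, 8.62 and 8.37 in untreated L1236. In L428 it read 10.46, 11.34 and 11.48 after treatment, against 9.32, 10.08 and 9.99 without. The groups did not overlap in either line. The rise in L1236 was 1.64 ± 0.33, or 3.11-fold (adjusted p = 0.0179), and it was 1.87 ± 0.10 without the arrays numbered 1. The call was lost without untreated L1236 replicate 1 or 3 or treated L1236 replicate 2 or 3 (adjusted p = 0.0521 to 0.0761). In L428 the difference of 1.30 ± 0.33, or 2.46-fold, was not called (adjusted p = 0.0827). With replicate number as a block it was called (adjusted p = 0.0144), as it was without treated L428 replicate 1 (0.012) or without all arrays numbered 1 (0.00136). It was also called without dim probe sets (0.0326) and with array weights (0.034). Under the other alternatives it was not called (0.0618 to 0.295).

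IRF3 and IRF2 had small differences and were called in L1236. The IRF3 probe set 202621_at (chromosome 19, 49659572 to 49665857) read 10.50, 10.63 and 10.92 in treated L1236, against 9.86, 10.26 and 10.01 in untreated L1236, and rose by 0.64 ± 0.14, or 1.56-fold (adjusted p = 0.0211). The IRF2 probe set 203275_at (chromosome 4, 184387729 to 184474550) read 10.02, 9.99 and 10.29 in treated L1236, against 9.72, 9.49 and 9.46 in untreated L1236, and rose by 0.55 ± 0.12, or 1.46-fold (adjusted p = 0.0226). For both genes the treated L1236 arrays lay above the untreated ones. In L428 the differences were 0.29 ± 0.14 for IRF3 (adjusted p = 0.344) and 0.21 ± 0.12 for IRF2 (adjusted p = 0.456), with 95% confidence intervals of -0.02 to 0.60 and -0.06 to 0.47. The L1236 call of IRF3 was lost without untreated replicate 1 or 3 or treated replicate 2 or 3 of that line (0.0627 to 0.0759), and that of IRF2 without untreated replicate 2 or 3 or treated replicate 3 (0.079 to 0.0885). With only the L1236 arrays in the fit both calls were lost, at 0.0926 for IRF3 and 0.0737 for IRF2.

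**Figure D2:**
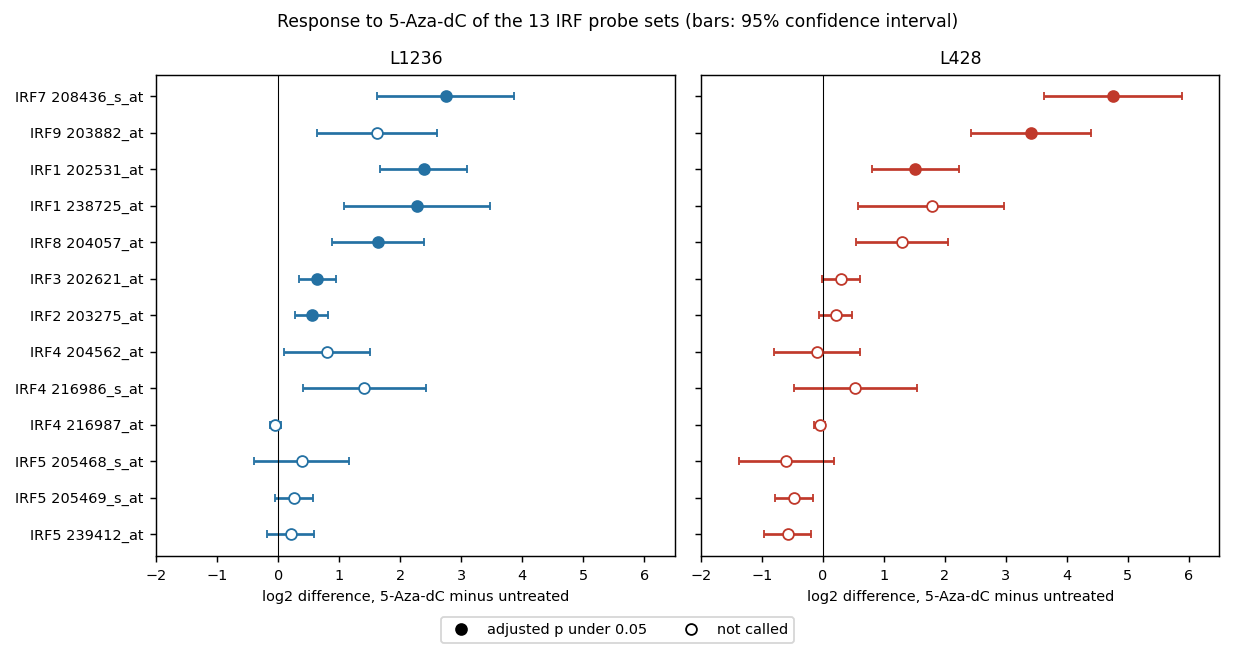
Log2 difference, 5-Aza-dC minus untreated, of the 13 IRF probe sets in L1236 (left) and L428 (right); points are limma estimates, bars 95% confidence intervals, and filled points have an adjusted p under 0.05. The filled points are 6 in L1236 and 3 in L428, all above 0, with IRF7 farthest from 0 in both panels.

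IRF4 (chromosome 6, 391752 to 411443) was not called in either line. Probe set 204562_at read 12.25, 12.57 and 12.75 in treated L1236, against 11.93, 11.67 and 11.58 in untreated L1236. Those groups did not overlap, and the difference was 0.80 ± 0.31 (adjusted p = 0.161), or 1.04 ± 0.16 without the arrays numbered 1 (adjusted p = 0.0101). In L428 it read 11.78, 10.77 and 10.91 after treatment, against 11.76, 10.78 and 11.23 without, and the groups overlapped, with a difference of -0.10 ± 0.31 (adjusted p = 0.862). Without untreated L428 replicate 1 that difference was 0.15. Probe set 216986_s_at had a difference of 1.41 ± 0.44 in L1236 (adjusted p = 0.0891, or 0.0106 without treated L1236 replicate 1) and of 0.53 ± 0.44 in L428 (adjusted p = 0.559). Probe set 216987_at stayed between 2.64 and 2.86 on all arrays, at the lower end of the scale. Over the 12 arrays its correlation with 204562_at was -0.69, while 216986_s_at and 204562_at correlated at 0.81.

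IRF5 was not called as changed by the drug at any of its 3 probe sets. In L1236 the differences were 0.38 ± 0.34 at 205468_s_at, 0.25 ± 0.14 at 205469_s_at and 0.20 ± 0.17 at 239412_at (adjusted p = 0.455, 0.267 and 0.436). In L428 they were -0.60 ± 0.34, -0.48 ± 0.14 and -0.58 ± 0.17 at the same probe sets (adjusted p = 0.473, 0.114 and 0.131). At 205469_s_at the treated L428 arrays, at 10.29, 10.24 and 10.14, lay below the untreated ones, at 10.44, 10.85 and 10.83, and the probe set was called lower without untreated L428 replicate 1 (-0.61, adjusted p = 0.0361) and without all arrays numbered 1 (-0.65 ± 0.11, adjusted p = 0.0166). At 239412_at the treated L428 arrays, at 6.91, 6.73 and 6.87, also lay below the untreated ones, at 7.73, 7.16 and 7.36.

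The probe sets of IRF5 disagreed on which untreated line has more of its transcript. At 239412_at untreated L1236 read 10.46, 10.12 and 9.88, against 7.73, 7.16 and 7.36 in untreated L428, a difference of 2.74 ± 0.17, or 6.66-fold higher in L1236 (adjusted p = 5.40e-06). At 205469_s_at untreated L1236 read 9.60, 9.56 and 9.31, against 10.44, 10.85 and 10.83 in untreated L428, a difference of -1.21 ± 0.14 (adjusted p = 2.06e-04). The remaining probe set, 205468_s_at, had a difference of -1.11 ± 0.34 (adjusted p = 0.0508). The lines did not overlap at any of the 3, and the calls of 239412_at and 205469_s_at were kept under each alternative that tested them. Over the 12 arrays 239412_at correlated at -0.80 with 205469_s_at and at -0.50 with 205468_s_at, while 205468_s_at and 205469_s_at correlated at 0.87. The files used here do not say which IRF5 transcripts each probe set detects.

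**Figure D3:**
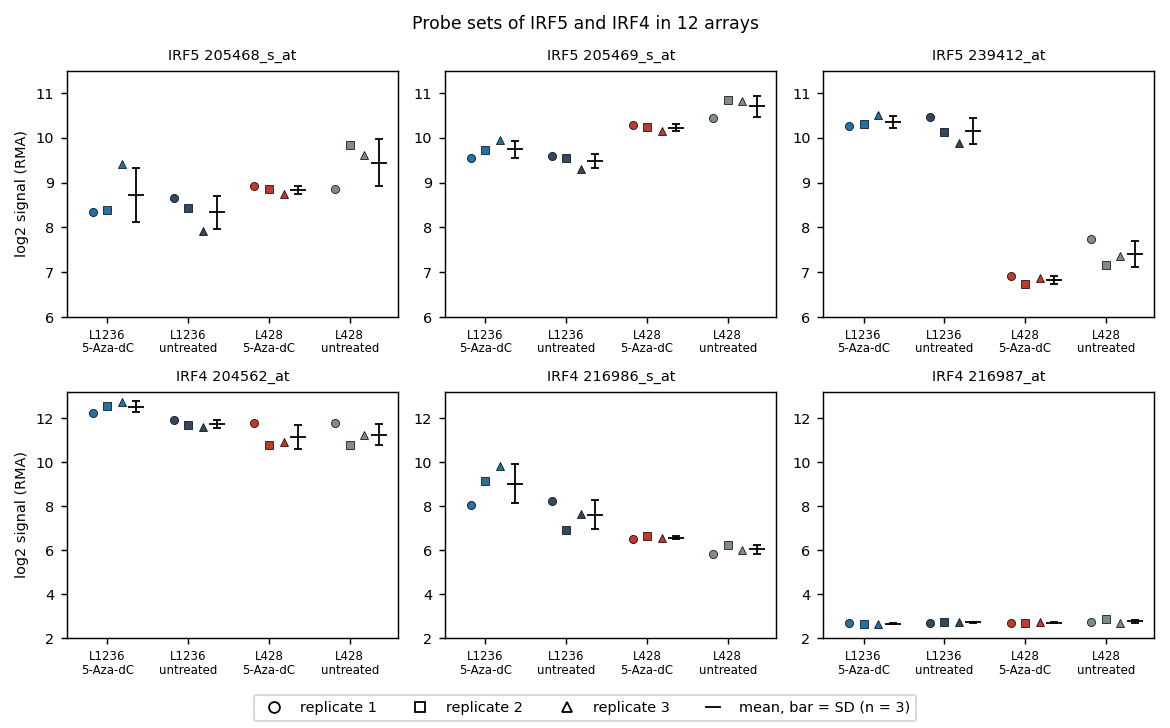
Log2 signal of the 3 probe sets of IRF5 (top) and of IRF4 (bottom) in 4 groups of 3 arrays; symbols mark replicates and bars the mean with its SD. IRF5 239412_at is higher in L1236 than in L428, the other IRF5 probe sets are lower in untreated L1236 than in untreated L428, and IRF4 216987_at lies flat at 2.64 to 2.86.

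Without treatment 4 of the 13 probe sets differed between the lines, 2 higher and 2 lower in L1236, against 11.2% and 9.89% of all probe sets. The lines did not overlap at 5 probe sets that were higher in L1236 and 3 that were lower, against 16.2% and 18% of all. Beside the IRF5 probe sets, the calls were IRF8, with a difference of -1.34 ± 0.33 (adjusted p = 0.0184), and IRF4 at 216986_s_at, which read 8.25, 6.93 and 7.66 in untreated L1236, against 5.83, 6.25 and 6.03 in untreated L428, a difference of 1.58 ± 0.44 (adjusted p = 0.0329). The other IRF4 probe set well above the floor, 204562_at, had a difference of 0.47 ± 0.31 (adjusted p = 0.425). Untreated IRF7 and IRF9 had differences of 0.45 ± 0.49 and 0.90 ± 0.43 (adjusted p = 0.648 and 0.223). The IRF8 call was lost without untreated replicate 1 or 3 of L1236 or untreated replicate 2 or 3 of L428 (adjusted p = 0.059 to 0.0712), and with array weights (0.0518). The IRF4 call was lost with array weights (0.204), with the replicate block (0.0562), without the arrays numbered 1 (0.0598), and without any 1 of 8 arrays, which were untreated L1236 replicates 1 and 3, treated L1236 replicate 2, the 3 untreated L428 arrays and treated L428 replicates 2 and 3 (0.0504 to 0.116).

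The L1236 response minus the L428 response was called for 0 of the 13 probe sets by limma, against 2.57% of all. An unadjusted p under 0.05 was found for 4 of the 13, and the share of all probe sets with such a p is not given here. Of these, IRF7 and IRF9 lay below 0, and IRF5 at 205469_s_at and 239412_at lay above 0. For IRF7 this difference of responses was -2.01 ± 0.70, with a 95% confidence interval of -3.60 to -0.42 (adjusted p = 0.232), and for IRF9 it was -1.80 ± 0.61, with an interval of -3.20 to -0.41 (adjusted p = 0.22). For IRF5 it was 0.73 ± 0.19 at 205469_s_at (adjusted p = 0.103) and 0.78 ± 0.25 at 239412_at (adjusted p = 0.175). For IRF8 it was 0.34 ± 0.47, with an interval of -0.73 to 1.41. Without the arrays numbered 1, 6 of the 13 were called, against 14.3% of all probe sets. These were IRF7 at -1.81 ± 0.20 and IRF9 at -2.05 ± 0.27 (adjusted p = 0.00673 and 0.011), with a smaller response in L1236, and IRF1 at 202531_at, IRF4 at 204562_at and IRF5 at 205469_s_at and 239412_at, with values of 0.87, 1.20, 1.05 and 0.86 (adjusted p = 0.0147 to 0.0376). At 205469_s_at the difference was also called without untreated L428 replicate 1 (0.0339) or without treated L1236 replicate 1 (0.0468).

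Among the members, IRF7 and IRF9 varied together, with a Pearson correlation of 0.96 over the 12 arrays, while IRF7 and IRF4 correlated at 0.04 and IRF1 and IRF3 at 0.87. These correlations describe 12 arrays in 4 groups, so that the group means shape them. The genes most like IRF7 over the 12 arrays were TRIM21 (r = 0.994), IFI27 and TRIM22 (0.991 each). Those most like IRF9 were the RNA sensor RIGI (0.984), B3GNT2 (0.983) and CHMP5 (0.975). For IRF1 they were IER3 (0.989), CCL22 (0.986) and ULBP2 (0.981), and for IRF8 TXNL4B (0.985), AIM2 (0.984) and GTF2F1 (0.981). IRF4 was closest to FLOT1 (0.963), IRF5 to PRRC2A (0.986), IRF3 to KCNC4 (0.94) and IRF2 to ZNF436 (0.915).

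Of 8 known targets of ISGF3, 2 rose in L1236 and 8 in L428, with median differences of 1.35 and 6.03. Among all genes 7.41% were called higher and 4.99% lower in L1236, and 2.84% and 1.02% in L428. The oligoadenylate synthetase gene OAS2 averaged 11.01 in treated and 5.08 in untreated L428, a rise of 5.93 ± 0.40 (adjusted p = 1.70e-04), and 7.13 in treated and 6.07 in untreated L1236. IFI27, an interferon-induced gene, rose by 6.92 ± 1.02 in L1236 and 10.08 ± 1.02 in L428 (adjusted p = 0.004 and 0.0014), with untreated levels at the floor, at 2.44 and 2.41. Its L428 call was lost with only the L428 arrays in the fit (0.0626). MX1, whose product blocks influenza virus, rose in L1236 by 2.92 ± 0.53 (adjusted p = 0.0112, or 0.0507 without treated L1236 replicate 2). The mean level of the 8 targets was 7.92, 9.74 and 9.64 in treated L1236, against 6.72 to 6.93 in untreated L1236. In L428 it was 11.34, 13.33 and 13.23 after treatment, against 6.22 to 6.69 without. Treated replicate 1 of each line was thus the lowest treated array for these genes, as for IRF7, IRF9, IRF1 and IRF8.

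Of 8 targets of IRF3 and IRF7, 1 rose in L1236 and 7 in L428, with median differences of 1.56 and 4.76. The chemokine gene CCL5 was the 1 that rose in L1236, by 2.24 ± 0.29 (adjusted p = 0.00219), and IFIT1, which binds foreign RNA, rose by 6.48 ± 0.48 in L428 (adjusted p = 2.86e-04). Of 8 targets of IRF1, 2 rose in L1236 and 4 in L428, with median differences of 0.48 and 1.25. The immunoproteasome gene PSMB9 rose in both, by 0.64 ± 0.09 in L1236 and 1.33 ± 0.09 in L428 (adjusted p = 0.00347 and 2.02e-04). The cytokine gene IL15 rose in L1236 by 2.21 ± 0.38 (adjusted p = 0.0087, or 0.0526 with only the L1236 arrays in the fit).

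The difference of responses itself was called lower in L1236 for 4 ISGF3 targets, 2 targets of IRF3 and IRF7 and 1 target of IRF1, and higher for none of these 3 lists, against 1.46% lower and 2.13% higher among all genes. The IRF1 target was PSMB9, whose call was lost under 14 alternatives, and those of CXCL10 (an IRF3 and IRF7 target) and IFI44L (an ISGF3 target) were lost under 7 and 11. In OAS2 it was -4.87 ± 0.56 (adjusted p = 0.00323) and in IFIT1 -5.04 ± 0.68 (adjusted p = 0.00697).

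Upstream of the factors, 4 of 15 genes that activate IRF3, IRF5 or IRF7 rose in each line, with median differences of 0.12 in L1236 and 0.58 in L428. RIGI averaged 11.78 in treated and 5.61 in untreated L428, a rise of 6.16 ± 0.63 (adjusted p = 0.00152, or 0.0765 with only the L428 arrays in the fit). It was also called higher in L1236, a call lost under 9 alternatives, with limma adjusted p up to 0.151. The adaptor gene MYD88 rose in L428 by 1.28 ± 0.20 (adjusted p = 0.0115, with a highest value of 0.166 over the alternatives and the call lost without treated L428 replicate 3), and TRAF6, a ubiquitin ligase of the Toll-like receptor pathway, rose in L1236 by 1.43 ± 0.16 (adjusted p = 9.93e-04). The kinase gene TBK1 had differences of 0.12 ± 0.05 in L1236 and -0.18 ± 0.05 in L428 (adjusted p = 0.215 and 0.131). Of 4 genes of the interferon receptor and its kinases measured, limma called 0 in either line, with median differences of 0.01 in L1236 and -0.15 in L428. Of 8 inhibitors and corepressors of IRF factors, 2 rose in each line. The ubiquitin ligase gene TRIM21 rose by 0.94 ± 0.16 in L1236 and 1.88 ± 0.16 in L428 (adjusted p = 0.00833 and 6.20e-04). Its L1236 call was lost with only the L1236 arrays in the fit (0.0598). TNFAIP3 (A20), an inhibitor of NF-kappaB, rose by 2.37 ± 0.29 in L1236 (adjusted p = 0.00154), and USP18, which restrains the interferon receptor, by 3.61 ± 0.30 in L428 (adjusted p = 5.23e-04).

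Among the 7 DNA-binding partners of IRF4 and IRF8, 2 rose in L1236 and 0 in L428. SPIB, an ETS factor of B cells, averaged 9.19 in treated and 2.66 in untreated L1236, a rise of 6.54 ± 0.31 (adjusted p = 5.52e-06), and 9.42 in treated and 8.86 in untreated L428. The AP-1 gene JUNB rose in L1236 by 2.16 ± 0.38 (adjusted p = 0.00994, or 0.0812 with only the L1236 arrays in the fit). SPI1, which encodes the ETS factor PU.1, averaged 2.08 to 2.15 in all groups, near the floor. Of 6 targets of IRF4 and IRF8 measured, 3 rose in L1236 and 0 in L428, with median differences of 1.22 and 0.83. PRDM1, which encodes the plasma-cell regulator Blimp-1, averaged 7.73 in treated and 6.08 in untreated L1236, a rise of 1.65 ± 0.10 (adjusted p = 1.99e-05), and 9.84 in treated and 9.83 in untreated L428. The surface receptor gene CD40 and the growth regulator MYC rose in L1236 by 1.35 ± 0.31 and 1.09 ± 0.25 (adjusted p = 0.0299 and 0.0315). Both calls were lost without untreated L428 replicate 2, untreated L1236 replicate 2 or 3, or treated L1236 replicate 2 or 3, and that of MYC also without untreated L1236 replicate 1, with adjusted p up to 0.112 for CD40 and 0.12 for MYC over the alternatives.

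**Figure D4:**
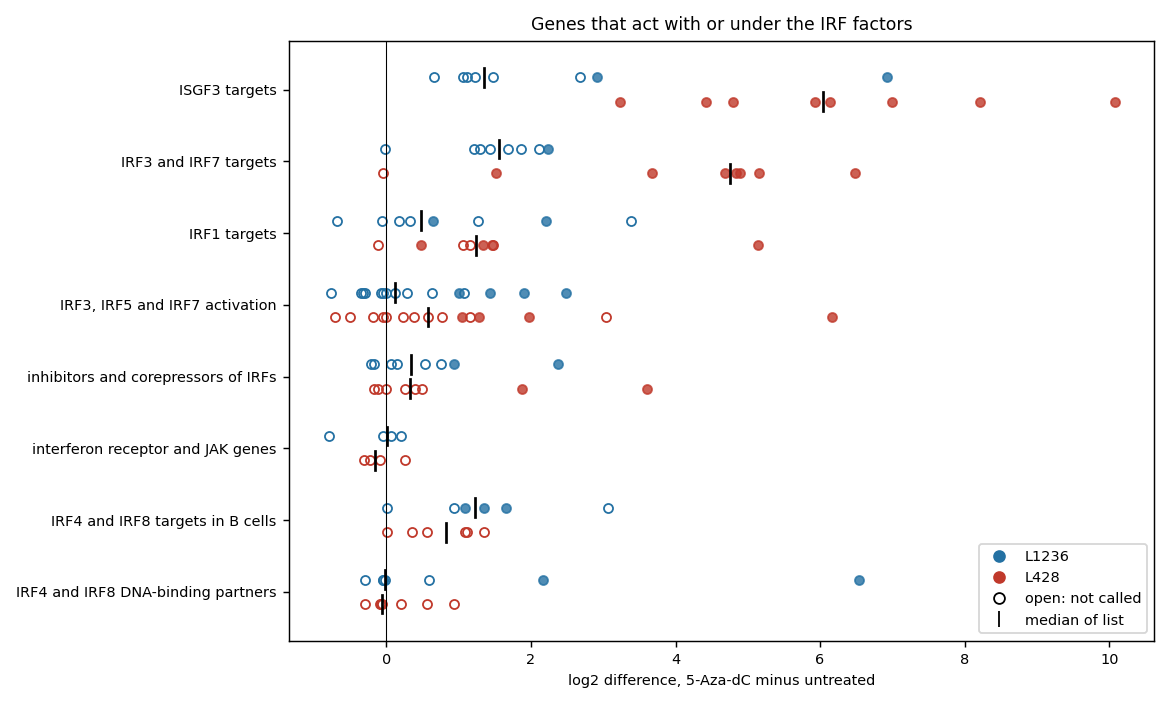
Log2 difference, 5-Aza-dC minus untreated, of the genes of 8 lists in L1236 (upper row of each pair) and L428 (lower row); each point is a gene, filled where the adjusted p is under 0.05, and black marks are list medians. The ISGF3 targets have medians of 1.35 in L1236 and 6.03 in L428, and SPIB is the rightmost partner gene, filled in L1236 at 6.54.

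Among markers of other blood cells that express IRF genes, the calls fell on single members of a list. Of 4 monocyte markers ITGAM rose in L1236, by 1.63 ± 0.16 (adjusted p = 5.53e-04), and 0 were called in L428, while CD14 averaged 2.26 to 2.28 in all groups. Their mean level was 3.55 to 4.10 in treated and 3.26 to 3.28 in untreated L1236, and 3.21 to 3.58 in treated and 3.0 to 3.27 in untreated L428. Of 4 plasmacytoid dendritic cell markers CLEC4C rose in L1236, by 1.40 ± 0.31 (adjusted p = 0.0247, with the call lost without any 1 untreated L1236 array or treated L1236 replicate 3, at values up to 0.139 over the alternatives), and 0 were called in L428. Their mean level was 4.39 to 4.61 in treated and 4.25 to 4.35 in untreated L1236, and 4.90 to 4.98 in treated and 4.82 to 5.02 in untreated L428, with TCL1A at the floor. Of 3 plasma-cell markers 0 were called in L1236 and CD38 rose in L428, by 5.82 ± 0.74 (adjusted p = 0.0043). Their mean level was 4.03 to 4.30 in treated and 3.88 to 4.40 in untreated L1236, and 4.40 to 5.87 in treated and 2.70 to 3.12 in untreated L428, with TNFRSF17 at the floor. The CD38 call was lost with only the L428 arrays in the fit (adjusted p = 0.132). Of 4 T-cell and NK-cell markers CD3D rose in L1236, by 2.43 ± 0.43 (adjusted p = 0.00953), and CD2 in L428, by 1.71 ± 0.26 (adjusted p = 0.0109), with CD3E at 1.74 to 1.76 in all groups. Their mean level was 3.54 to 4.0 in treated and 2.70 to 2.87 in untreated L1236, and 3.58 to 4.25 in treated and 2.79 to 3.20 in untreated L428. The CD2 call was lost with only the L428 arrays in the fit (adjusted p = 0.15). In L1236 the median differences were 0.30 for the monocyte, 0.11 for the plasmacytoid dendritic cell, 0.0 for the plasma-cell and 0.60 for the T-cell and NK-cell markers. In L428 they were 0.07, 0.02, 1.32 and 0.85 in the same order. The part of these genes in the IRF differences was not tested.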

How the data were processed

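The authors' deposited table holds log2 signals of 54675 probe sets on 12 arrays. RMA is named by the submitters' processing notes, and its version is not given in the sources used here. The probe set names are those of a 3' array, although the labels' design text gives a whole-transcript array. No detection calls were used, so values near 2 to 3 mark the lower end of the scale and folds from there are uncertain in size.

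The 62 control probe sets were left out. Of the other 54613, 41091 had 1 gene symbol, 1801 several and 11721 none in the platform annotation, and symbols of 41037 were updated through Entrez identifiers to RefSeq (GRCh38.p14). No filter on dim values was used, so all 13 IRF probe sets were tested. The tool was limma 3.58.1 (R 4.3.3): 4 group means were fitted to all 12 arrays, with two-sided tests and Benjamini-Hochberg adjustment over 54613 probe sets. A list gene is represented by its brightest probe set on average, and at most 3 called genes are named per list and contrast, by adjusted p. Genes named without a call, marker genes and single genes left out of that rule were chosen after their values were seen. For likeness, the 3 genes with the highest Pearson correlation were sought, and for 4 members the first alone is named.

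Groups came from the sample descriptions. The labels speak of triplicates but not of separate cultures, so the p-values cover the spread between arrays that may be technical, and 3 arrays per group limit the precision. Replicate numbers follow accession order and match the endings of the array titles. Deviations from the group means of same-numbered treated and untreated arrays correlated at 0.069, 0.012 and 0.103 in L1236 and at 0.26, 0.154 and 0.167 in L428, and those of the treated arrays of the 2 lines at 0.402, 0.278 and 0.223. Each L428 correlation was above 0.1, but mismatched replicates 2 and 3 correlated there at 0.161 and 0.168. Mismatched treated replicates 2 and 3 of the 2 lines correlated at 0.306 and 0.266. Any pairing is thus a hint from the data, not from the labels. The main fit used no pairing, and replicate number entered as a block among the alternatives alone. The members and gene lists were chosen with earlier results of these data known. Alternatives were 2 other scalings, a filter on dim probe sets, 1 probe set per gene, only the arrays compared, another variance model, array weights, a replicate block, and fits without the arrays numbered 1 or without each array.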

Additional observations from a re-analysis of the deposited data

Results flagged for a closer look

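The test of the difference of responses, L1236 minus L428, called none of the IRF probe sets and 12 genes of the 8 lists beside them. A smaller response in L1236 than in L428 was found for OAS1 (-5.51, adjusted p = 0.0146), IFI6 (-5.48, 0.0414), IFIT1 (-5.04, 0.00697), OAS2 (-4.87, 0.00323), CXCL10 (-3.40, 0.0234), IFI44L (-3.30, 0.0397), USP18 (-2.85, 0.0112) and PSMB9 (-0.69, 0.0314). CXCL10, a chemokine gene, averaged 13.04 in treated and 11.75 in untreated L1236, and 13.08 in treated and 8.40 in untreated L428. A larger response in L1236 was found for SPIB (5.98, 2.21e-04), TNFAIP3 (1.98, 0.0426), PRDM1 (1.64, 4.43e-04) and TRAF6 (1.19, 0.0308). The calls of OAS1, IFIT1, OAS2, USP18, SPIB and PRDM1 were kept under each alternative run. Those of CXCL10, IFI44L, PSMB9, TNFAIP3 and TRAF6 were lost under 7, 11, 14, 13 and 10 alternatives, most of which left out 1 array, with adjusted p up to 0.0669, 0.103, 0.0807, 0.106 and 0.0811. IFI6 lies outside the naming rule, and its values under the alternatives are not given here.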

How the results depend on the processing

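Of 1055 values of the 13 IRF probe sets under alternatives, 948 kept their direction and their side of the threshold, 48 lost a call, 46 gained one and 13 reversed. In L1236 the number of IRF probe sets called was 6, and it was 2 with only the L1236 arrays, 12 with array weights, 9 without the arrays numbered 1, and 2 to 8 without single arrays. In L428 it was 3, and it was 5 without dim probe sets, 1 with only the L428 arrays, 6 without the arrays numbered 1, and 2 to 5 without single arrays. For the difference of responses it was 0, and it was 6 without the arrays numbered 1 and 0 to 1 without single arrays. For the untreated lines it was 4, and it was 2 with array weights, 7 without the arrays numbered 1, and 2 to 5 without single arrays. With 1 probe set per gene it was 2 of the 8 then tested. The called IRF5 239412_at and IRF4 216986_s_at were not in that fit. The array weights stopped short of their convergence tolerance. Over all probe sets the L1236 calls were 4927, or 12713 without the arrays numbered 1, 29528 with array weights, 3084 with only the L1236 arrays and 13111 with median centring, where 24.6% were higher in treated cells, against 50.8%. The L428 calls were 1647, or 9956 without the arrays numbered 1 and 244 with only the L428 arrays. Without dim probe sets the L428 calls were 2539 of 27307, or 9.3%, against 3.02% in the main fit. The calls of the difference of responses were 1403, or 7816 without the arrays numbered 1 and 2876 with array weights. Between the untreated lines 21.1% of all probe sets were called, or 26.8% without the arrays numbered 1 and 17.6% with array weights. With 1 probe set per gene the share was 28.8%. With the replicate block, the IRF counts were 6 in L1236, 4 in L428, 0 for the difference of responses and 3 for the untreated lines. The block added the call of IRF8 in L428 and ended that of IRF4 216986_s_at between untreated lines (0.0562), and it changed no other IRF call. For IRF4 204562_at in L428 the difference without single arrays ran from -0.41 to 0.15. For IRF4 216987_at the difference of responses was -0.02 with median centring, with array weights and without the arrays numbered 1, and ran from -0.05 to 0.03 without single arrays, and the difference between untreated lines from -0.07 to 0.0046. For IRF1 238725_at the difference of responses without single arrays ran from -0.06 to 0.99. The cause of these changes was not tested.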
